A study of Mus musculus with 11 samples.

Results

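The genes described here are 10 genes of T cell and NK cell killing: the granzymes Gzma, Gzmb and Gzmk, the perforin gene Prf1, the granule genes Nkg7 and Ctsw, the Fas ligand gene Fasl, and the chemokine genes Ccl3, Ccl4 and Ccl5. They were found by symbol among the 56748 gene IDs of the deposited count table, where each of the 10 matched 1 ID, and all 10 passed the filter on low counts. Bulk RNA of liver CD4 T cells was sequenced after 5 weeks of repeated injection of carbon tetrachloride (CCl4), a toxin that damages hepatocytes and leaves the liver fibrotic. CCl4 the chemical shares only its spelling with the chemokine gene Ccl4. Of the 11 libraries, 6 came from ATG5TLymph-/- mice, in which the autophagy gene Atg5 is removed in T lymphocytes (Atg5-deficient), and 5 from ATG5fl/fl mice, which carry the floxed gene intact (wild-type). All mice of both groups received CCl4, so every comparison is made within injured liver. The sources used here do not give the driver of the deletion or the age and sex of the mice.

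Cytotoxic lymphocytes store granzymes and perforin in secretory granules and release them onto a target cell, where perforin opens the membrane and granzymes cleave proteins inside. Fas ligand kills by another route, through the death receptor Fas on the target. CCL3, CCL4 and CCL5 are chemokines that the same lymphocytes secrete and that draw in other leukocytes through chemokine receptors. CD4 T cells are mostly helper cells, but some can take up this programme, for example in chronic infection.

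Libraries held 30699408 to 47564440 counts, and a gene with 3 counts, the limit of detection used here, had 0.0631 to 0.0977 CPM (counts scaled to library size). The series describes flow-sorted cells, whereas the extraction protocol in the labels describes fixed tissue sections, and the labels do not settle this. The CD4 T cell markers summed to 3879 to 5538 CPM in Atg5-deficient and 3771 to 4251 CPM in wild-type libraries, while Cd8a, which defines CD8 T cells, stood at 0 to 0.151 CPM in Atg5-deficient and 0 to 0.157 CPM in wild-type libraries. Cd8b1, the other CD8 marker, stood at 4.16 to 6.36 CPM in Atg5-deficient and 4.93 to 6.39 CPM in wild-type libraries. Atg5 counted over the whole gene does not check the genotype, since exons outside the deleted part are counted too. In bulk RNA, fewer cells that express a gene and less RNA per cell cannot be told apart. Whether each library is from its own mouse is not in the labels, and the p-values below thus reflect the spread among libraries, which may be technical. Replicate numbers follow the order of the samples and pair nothing. One library stood apart in these genes, Atg5-deficient replicate 4, and results that rest on it are given with and without it.

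In Atg5-deficient libraries 9 of the 10 genes had a higher fitted level, and the exception was Prf1. The median log2 fold change of the 10 was 1.80, against -0.0027 over all 17987 genes tested, of which 49.7% were positive. The 10 genes were chosen with earlier results of these data known. Values and shares of all genes beside theirs are thus a description and not a test. Only Gzma and Gzmb passed the test across all genes (edgeR's quasi-likelihood test, adjusted p under 0.05), 2 of 10 higher, where 4.43% of all genes passed in that direction. By the same test 0 of 10 passed as lower, where 2.41% of all genes did, and at an unadjusted p under 0.05 there were 6 higher and 0 lower, against 12.7% and 10.6% of all genes. In 4 of 10 genes (Gzma, Gzmb, Nkg7 and Ccl5) every Atg5-deficient library lay above every wild-type library, which held for 2.78% of all genes, and in 0 of 10 below (2.08%). By exact permutation of the 11 libraries, Gzma, Gzmb, Gzmk, Nkg7, Ctsw and Ccl5 were higher at a two-sided p under 0.05, 6 of 10, as were 11.5% of all genes tested (0 of 10 were lower, against 10.1%). On CPM without logarithms Ctsw missed this threshold and the count was 5 of 10, against 11.5% of all genes. DESeq2 called the same 6 genes higher, with 7.75% of all genes called higher by that tool and 5.22% lower, and gave no adjusted p for Ccl3 and Ccl4. With limma-voom and quality weights, Gzmb, Nkg7, Ctsw and Ccl5 passed as higher, with 10.9% of all genes higher and 8.12% lower. A strict low-count filter in edgeR gave 4 of 10 higher, against 6.18% of the genes it kept, and no filter gave 1, against 1.88%. In the libraries with consecutive title numbers (5 Atg5-deficient, 3 wild-type) 0 of 10 passed as higher, against 0.462%, and 5 were higher at an unadjusted p under 0.05, against 8.61%.

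**Figure D1:**
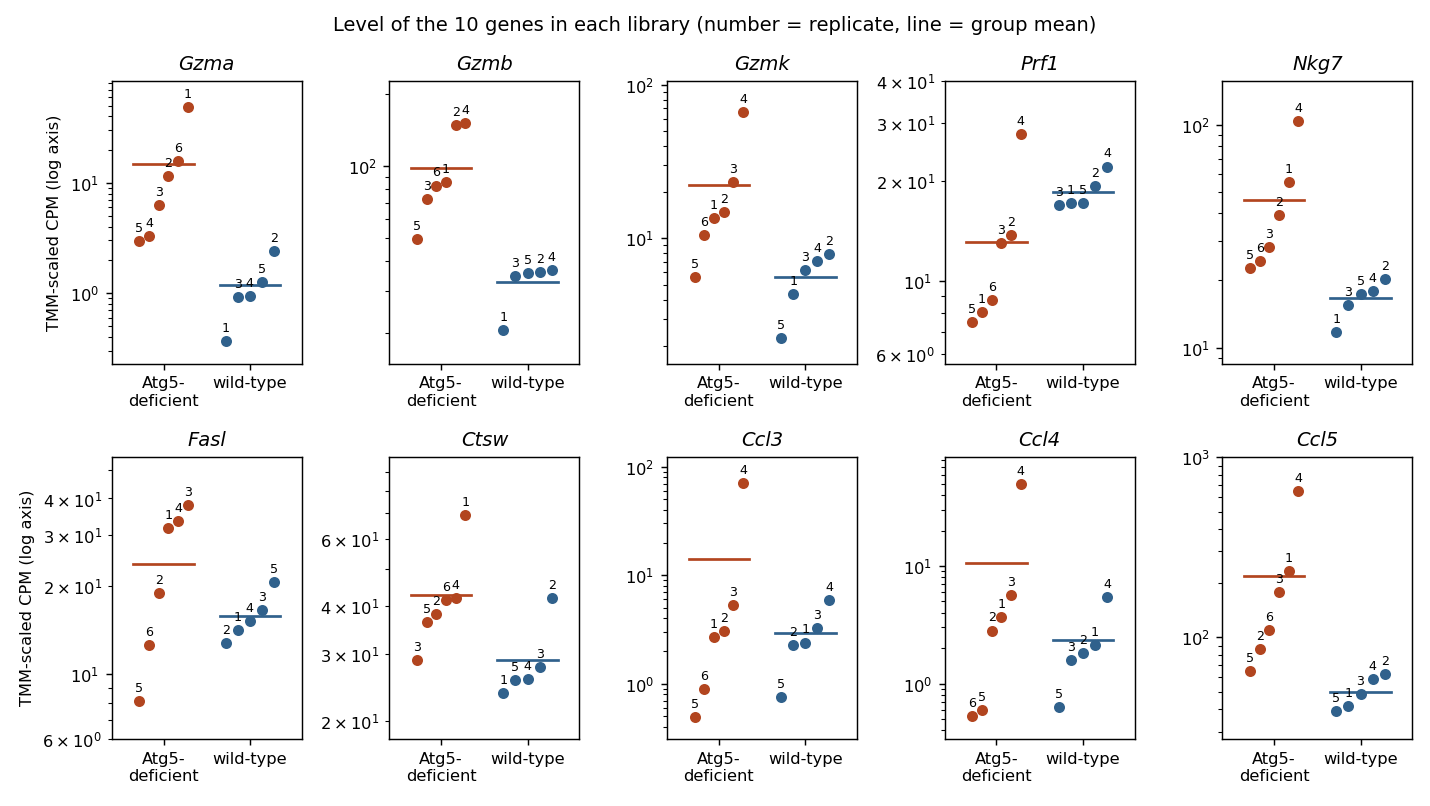
TMM-scaled CPM (log axis) of the 10 genes in each library, Atg5-deficient on the left and wild-type on the right; the number beside a point is the replicate and the line is the group mean. Atg5-deficient replicate 4 was the highest library in 7 of the 10 panels, and the groups were apart in Gzma, Gzmb, Nkg7 and Ccl5.

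Per kilobase of exon, which allows genes to be compared, Ccl5 was the most abundant of the 10 in both groups, at 68.1 to 676 CPM per kb (median 150.2) in Atg5-deficient and 40.7 to 64.9 CPM per kb (median 50.5) in wild-type libraries. Gzmb was second, at 34.3 to 106 CPM per kb (median 58.6) in Atg5-deficient and 14.3 to 25.5 CPM per kb (median 24.8) in wild-type libraries. Nkg7, Ctsw and Fasl followed in that order by median in both groups, and the ranges of neighbours among these 5 genes overlapped, save that Ccl5 and Gzmb, and Ctsw and Fasl, did not overlap among wild-type libraries. Gzma was last of the 10 in wild-type libraries, at 0.363 to 2.40 CPM per kb. It was seventh by median in Atg5-deficient libraries, at 2.94 to 48.3 CPM per kb, and Prf1 was ninth there, against sixth in wild-type libraries.

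The promoters below are those of the granzyme and perforin genes, whose fitted genotype differences did not all have the same sign, and of Ccl3, a gene that 1 library carried. They are the 250 bases before the gene start from RefSeq (GRCm38.p6), in the direction of transcription, with matches to searched motifs in capitals. RefSeq promoters were found for 7 of the 10 genes, all but Ctsw, Ccl4 and Ccl5. RefSeq starts can differ from those of the GENCODE M21 annotation, which gave the gene coordinates here. The Gzmk window lies inside its GENCODE gene (chr13:113171608-113225908), and the windows of Nkg7 and Prf1 end inside theirs.
Gzma, chr13:113100982-113101231, minus strand: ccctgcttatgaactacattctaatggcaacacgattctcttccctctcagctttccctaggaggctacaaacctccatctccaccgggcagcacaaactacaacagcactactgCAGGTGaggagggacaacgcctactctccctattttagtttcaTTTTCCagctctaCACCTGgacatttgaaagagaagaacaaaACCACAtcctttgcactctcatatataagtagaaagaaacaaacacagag
Gzmk, chr13:113180966-113181215, minus strand: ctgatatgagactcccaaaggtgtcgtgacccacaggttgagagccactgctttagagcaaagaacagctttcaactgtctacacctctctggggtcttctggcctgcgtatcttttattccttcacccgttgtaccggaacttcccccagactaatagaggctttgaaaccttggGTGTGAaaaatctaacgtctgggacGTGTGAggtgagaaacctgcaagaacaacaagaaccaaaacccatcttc
Gzmb, chr14:56262335-56262584, minus strand: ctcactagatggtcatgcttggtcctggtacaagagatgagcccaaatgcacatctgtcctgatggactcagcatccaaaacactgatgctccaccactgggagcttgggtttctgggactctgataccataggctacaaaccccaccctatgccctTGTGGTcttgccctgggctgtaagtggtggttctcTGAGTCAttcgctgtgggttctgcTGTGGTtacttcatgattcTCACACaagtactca
Prf1, chr10:61297586-61297835, plus strand: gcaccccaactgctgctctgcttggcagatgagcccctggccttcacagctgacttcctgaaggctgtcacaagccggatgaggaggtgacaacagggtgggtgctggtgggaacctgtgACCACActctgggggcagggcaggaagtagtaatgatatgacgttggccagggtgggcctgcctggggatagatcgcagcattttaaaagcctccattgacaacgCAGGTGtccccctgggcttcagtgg
Ccl3, chr11:83649379-83649628, minus strand: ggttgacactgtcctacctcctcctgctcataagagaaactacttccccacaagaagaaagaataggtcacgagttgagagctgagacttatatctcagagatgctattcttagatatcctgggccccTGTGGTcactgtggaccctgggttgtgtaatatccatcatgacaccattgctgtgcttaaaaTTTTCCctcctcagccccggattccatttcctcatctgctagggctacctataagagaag

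Each promoter was searched on both strands for 6 short motifs, and no matches overlapped each other. The letters GTGTGA, from the core that T-box factors such as T-bet and Eomes bind, were found in Gzmb, in Gzmk at 2 places, and in Nkg7, so in 3 of the 7 genes and in 12.3% of all 32851 promoters of this length. The RUNX letters TGTGGT were found in Gzma, Gzmb at 2 places, Prf1, Nkg7 and Ccl3, and in 14.05% of all promoters. The AP-1 letters TGANTCA were found in Gzmb alone of the 7, and in 6.75% of all promoters. The NFAT letters GGAAAA were found in Gzma, Fasl and Ccl3 (20.4% of all promoters) and the E-box letters CACCTG in Gzma at 2 places and in Prf1 (17.2%). The TATA letters TATAAA were in 0 of these 7 windows and in 12.4% of all promoters. A match shows only that the letters are present.

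Gzma, a granzyme that cleaves after basic residues, rose the most of the 10 genes. It stood at 48.6, 11.5, 6.35, 3.31, 2.96 and 15.7 CPM in Atg5-deficient replicates 1 to 6, against 0.365, 2.42, 0.927, 0.940 and 1.27 CPM in wild-type replicates 1 to 5. All 6 Atg5-deficient libraries were above all wild-type libraries, with replicate 1 far above the others and holding 55.0% of the sum over the group. The means were 14.7 ± 17.3 CPM (SD, n = 6) in Atg5-deficient and 1.18 ± 0.762 CPM (SD, n = 5) in wild-type libraries. The log2 fold change was 3.65 (SE 0.855, edgeR adjusted p = 0.0328), and the exact permutation p was 0.0087, two-sided. Without Atg5-deficient replicate 1 the mean of that group was 7.95 ± 5.504 CPM (SD, n = 5), and the log2 fold change of 2.75 (SE 0.567) still passed (adjusted p = 0.0263). Gzma passed in 6 of the 11 fits with 1 library left out, and failed without Atg5-deficient replicate 2 and without wild-type replicate 1, 3, 4 or 5 (log2 fold change from 3.42 to 3.71, adjusted p from 0.0566 to 0.0791). The wild-type libraries held 14 to 75 counts of Gzma each, so that their levels are less precise than those of the other granule genes.

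Gzmb, the granzyme that cleaves after aspartate and activates caspases, rose about 3.01-fold, and was the only gene of the 10 called whichever library was left out. It stood at 85.7, 148, 72.3, 152, 49.2 and 82.7 CPM in Atg5-deficient replicates 1 to 6, against 20.5, 35.9, 34.5, 36.6 and 35.6 CPM in wild-type replicates 1 to 5. The groups did not overlap, and replicates 2 and 4 were the highest of the Atg5-deficient libraries. The means were 98.2 ± 41.9 CPM (SD, n = 6) in Atg5-deficient and 32.6 ± 6.798 CPM (SD, n = 5) in wild-type libraries, with a log2 fold change of 1.59 (SE 0.293, edgeR adjusted p = 0.0118, exact permutation p = 0.0043, two-sided). With 1 library left out the log2 fold change ran from 1.42 to 1.73 and the adjusted p from 0.00550 to 0.0311.

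Gzmk, a granzyme typical of effector memory T cells, had a fitted level 4.01-fold higher that did not pass. It stood at 13.6, 14.8, 23.4, 66.0, 5.62 and 10.46 CPM in Atg5-deficient replicates 1 to 6, against 4.36, 7.89, 6.22, 7.12 and 2.26 CPM in wild-type replicates 1 to 5. Atg5-deficient replicate 4 held 49.3% of the sum over its group, replicate 5 lay within the wild-type range, and each of the other 4 was above it. The fitted log2 difference was 2.004 (SE 0.627, edgeR adjusted p = 0.0821, exact permutation p = 0.0195, two-sided), and 1.29 (SE 0.387, adjusted p = 0.0888) without Atg5-deficient replicate 4.

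Gzma and Gzmk lie 70627 bases apart on chromosome 13 and are both on the minus strand (GRCm38, chr13:113093825-113100981 and chr13:113171608-113225908), and yet they peaked in different libraries. Replicate 1 was the highest of the 6 Atg5-deficient libraries in Gzma and the fourth in Gzmk, whereas replicate 4 was the highest in Gzmk and the fifth in Gzma. As deviations from the group means over the 11 libraries, their log2(CPM + 1) levels had a Pearson r of -0.16 (permutation p = 0.724, adjusted p = 0.836 over 45 pairs) and a Spearman rho of -0.055 (permutation p = 0.890, adjusted p = 0.992). Without the 2 libraries farthest from their group mean in Gzma, r was -0.64. Per kilobase of exon the 3 granzymes together reached 41.2 to 156 CPM per kb (median 99.2) in Atg5-deficient and 17.8 to 33.1 CPM per kb (median 29.5) in wild-type libraries. Gzma made up 41.0% of that sum in Atg5-deficient replicate 1 and 2.10% in replicate 4, against 2.04% to 7.27% in wild-type libraries. Gzmk made up 30.4% in Atg5-deficient replicate 4, against 5.89% to 17.6% in wild-type libraries.

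Prf1, which encodes the pore-forming protein that lets granzymes into a target cell, did not share the higher fitted level of the granzymes in Atg5-deficient libraries. It stood at 8.03, 13.7, 13.0, 27.8, 7.49 and 8.76 CPM in Atg5-deficient replicates 1 to 6, against 17.1, 19.4, 16.9, 22.1 and 17.2 CPM in wild-type replicates 1 to 5. In Atg5-deficient replicate 4 the level was above every wild-type library, and in the other 5 Atg5-deficient libraries it was below every wild-type library. The means were 13.1 ± 7.66 CPM (SD, n = 6) in Atg5-deficient and 18.5 ± 2.24 CPM (SD, n = 5) in wild-type libraries, and the log2 fold change of -0.50 did not pass (SE 0.301, edgeR adjusted p = 0.353, exact permutation p = 0.0887, two-sided). Without Atg5-deficient replicate 4 the Atg5-deficient mean was 10.2 ± 2.92 CPM (SD, n = 5), the log2 fold change was -0.86 (SE 0.179) and Prf1 passed as lower (edgeR adjusted p = 0.0220), as did 1.14% of all genes in that fit. Without both replicates 1 and 4 it was -0.79 (SE 0.187, adjusted p = 0.0625). Of the 11 fits with 1 library left out, Prf1 passed in 1 only, that without replicate 4, its highest library. In the other fits the edgeR adjusted p was up to 0.523. From library to library, as deviations of log2(CPM + 1) from the group means, Prf1 did vary with Gzmk. Pearson's r was 0.88 (permutation adjusted p = 0.0215 over 45 pairs) and Spearman's rho 0.76 (permutation adjusted p = 0.108). Without the 2 libraries farthest from their group mean in Gzmk, r was 0.56. With Gzmb r was 0.71 (permutation adjusted p = 0.137), and with Gzma -0.41 (permutation adjusted p = 0.561).

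The level of Gzmb per kilobase was 19.2, 19.4, 10.03, 9.81, 11.8 and 17.0 times that of Prf1 in Atg5-deficient replicates 1 to 6, against 2.16, 3.33, 3.68, 2.98 and 3.72 times in wild-type replicates 1 to 5. The groups were apart in this ratio, replicate 4 included, which had the lowest ratio of the Atg5-deficient libraries. The ratio was chosen after the levels had been seen and was not tested. Of 17141 other genes with a read in every library, 2.39% had a ratio to Prf1 that was higher in each Atg5-deficient library than in every wild-type library.

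**Figure D2:**
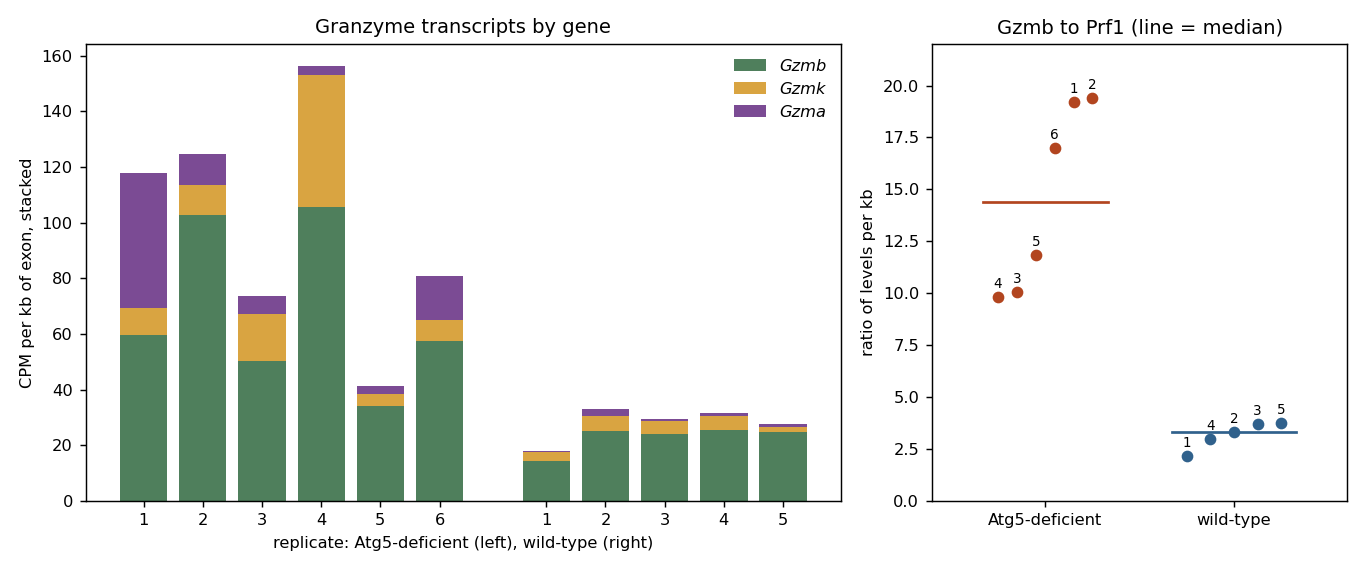
Left, stacked levels of Gzmb, Gzmk and Gzma in CPM per kb of exon, Atg5-deficient replicates on the left and wild-type on the right; right, the ratio of Gzmb to Prf1 per kb in each library, with the group median as a line. The sum was 41.2 to 156 CPM per kb in Atg5-deficient and 17.8 to 33.1 CPM per kb in wild-type libraries, and the ratio was at least 9.81 in Atg5-deficient and at most 3.72 in wild-type libraries.

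Nkg7 encodes a membrane protein of cytotoxic granules that helps mouse lymphocytes to degranulate. It stood at 55.6, 39.4, 28.2, 104, 22.8 and 24.5 CPM in Atg5-deficient replicates 1 to 6, against 11.8, 20.4, 15.5, 17.97 and 17.4 CPM in wild-type replicates 1 to 5. The groups did not overlap, although replicates 5 and 6 came close to the highest wild-type library. At a log2 fold change of 1.46 (SE 0.397) it just missed the threshold in the test across all genes (edgeR adjusted p = 0.0515, exact permutation p = 0.0065, two-sided). Without Atg5-deficient replicate 4 it was 1.04 (SE 0.239) and passed (adjusted p = 0.0355), where 2.81% of all genes passed as higher, and the SD of the Atg5-deficient group was 13.6 CPM without that library and 31.1 CPM with it. It also passed without replicate 3, 5 or 6 (adjusted p from 0.0368 to 0.0427), and failed without replicate 1 (0.0928), replicate 2 (0.0822) or any 1 wild-type library (0.0770 to 0.118), with log2 fold changes of 1.36 to 1.55. Without both replicates 1 and 4 it was 0.79 (SE 0.184, adjusted p = 0.0584).

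Ctsw, a cysteine protease (cathepsin W) found mainly in cytotoxic lymphocytes, stood at 69.1, 38.2, 29.0, 42.0, 36.3 and 41.4 CPM in Atg5-deficient replicates 1 to 6, against 23.6, 41.9, 27.7, 25.8 and 25.6 CPM in wild-type replicates 1 to 5. Replicate 1 was the highest library, wild-type replicate 2 lay among the Atg5-deficient libraries, and all Atg5-deficient libraries were above the other 4 wild-type libraries. A log2 fold change of 0.56 did not pass (SE 0.208, edgeR adjusted p = 0.122, exact permutation p = 0.0346, two-sided, and 0.0519 on CPM without logarithms), but did without wild-type replicate 2 (0.74, adjusted p = 0.0430). Exons of Ctsw share 9 bases with Fibp on the other strand, and the sources used here do not give the strand setting of the counts.

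Fasl stood at 31.7, 18.9, 38.1, 33.4, 8.08 and 12.6 CPM in Atg5-deficient replicates 1 to 6, against 14.1, 12.8, 16.6, 15.2 and 20.7 CPM in wild-type replicates 1 to 5. Atg5-deficient replicates 1, 3 and 4 were above all wild-type libraries, replicates 5 and 6 were below all of them, and replicate 2 was among them. The log2 fold change was 0.58 (SE 0.359, edgeR adjusted p = 0.365, exact permutation p = 0.346, two-sided), so that no difference beyond the spread between libraries was shown. The spread itself was 12.3 CPM (SD, n = 6) in Atg5-deficient and 3.01 CPM (SD, n = 5) in wild-type libraries.

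The 3 chemokine genes lie on chromosome 11 (GRCm38), with Ccl3 (chr11:83647844-83649355, minus strand) and Ccl4 (chr11:83662584-83664683, plus strand) 13229 bases apart and Ccl5 nearby (chr11:83525778-83530518, minus strand). Ccl5, the most abundant of the 3, separated the genotypes, while Ccl3 and Ccl4 were high in 1 Atg5-deficient library only. Ccl5 stood at 234, 85.7, 179, 649, 65.4 and 109 CPM in Atg5-deficient replicates 1 to 6, against 41.6, 62.3, 48.5, 58.8 and 39.0 CPM in wild-type replicates 1 to 5. The groups did not overlap, and replicate 4 held 49.1% of the sum over its group. The means were 220.3 ± 219 CPM (SD, n = 6) in Atg5-deficient and 50.04 ± 10.3 CPM (SD, n = 5) in wild-type libraries. Its log2 fold change of 2.14 missed the threshold (SE 0.589, edgeR adjusted p = 0.0571, exact permutation p = 0.0087, two-sided). Without Atg5-deficient replicate 4 the mean of that group was 134.7 ± 70.1 CPM (SD, n = 5), and the log2 fold change of 1.43 (SE 0.330) passed (adjusted p = 0.0431), as it did without replicate 5 (adjusted p = 0.0431) or 6 (0.0467). Without both replicates 1 and 4 it was 1.14 (SE 0.265, adjusted p = 0.0695), with the 4 remaining Atg5-deficient libraries still above all wild-type libraries.

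Ccl3 stood at 2.71, 3.05, 5.34, 71.3, 0.493 and 0.892 CPM in Atg5-deficient replicates 1 to 6, against 2.40, 2.25, 3.28, 5.92 and 0.763 CPM in wild-type replicates 1 to 5. Apart from replicate 4, which held 85.1% of the sum over its group, every Atg5-deficient library was below the highest wild-type library. Its log2 fold change of 2.26 did not pass (SE 1.27, edgeR adjusted p = 0.326, exact permutation p = 0.725, two-sided), and was -0.23 without replicate 4 (SE 0.620, adjusted p = 0.872). Ccl4 stood at 3.68, 2.83, 5.69, 50.4, 0.592 and 0.525 CPM in Atg5-deficient replicates 1 to 6, against 2.14, 1.80, 1.58, 5.47 and 0.636 CPM in wild-type replicates 1 to 5. Replicate 4 held 79.1% of the sum over its group, replicate 3 was just above the highest wild-type library, and replicates 5 and 6 were below the lowest. The log2 fold change was 2.19 (SE 1.20, edgeR adjusted p = 0.308, exact permutation p = 0.526, two-sided), and 0.19 without replicate 4 (SE 0.687, adjusted p = 0.907).

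Ccl3 and Ccl4 varied together from library to library. Over the 11 libraries, as deviations of log2(CPM + 1) from the group means, Pearson's r was 0.98 (permutation p = 0.00022, adjusted p = 0.00495 over 45 pairs of the 10 genes) and Spearman's rho 0.90 (permutation p = 0.00062, adjusted p = 0.0279). Without the 2 libraries farthest from their group mean in Ccl3, r was 0.95. Gzmk also varied with Ccl3 (r = 0.94, permutation p = 0.00015, adjusted p = 0.00495; rho = 0.87, permutation p = 0.0018, adjusted p = 0.0407), with r = 0.83 without the 2 libraries farthest from their group mean in Gzmk. These were the 2 of 45 pairs past an adjusted p of 0.05 by both measures, while 9 pairs passed by Pearson's r and 2 by Spearman's rho. In 39 of the 45 pairs r was positive. All pairs share the same libraries, and replicate 4 is among the farthest in most of them.

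**Figure D3:**
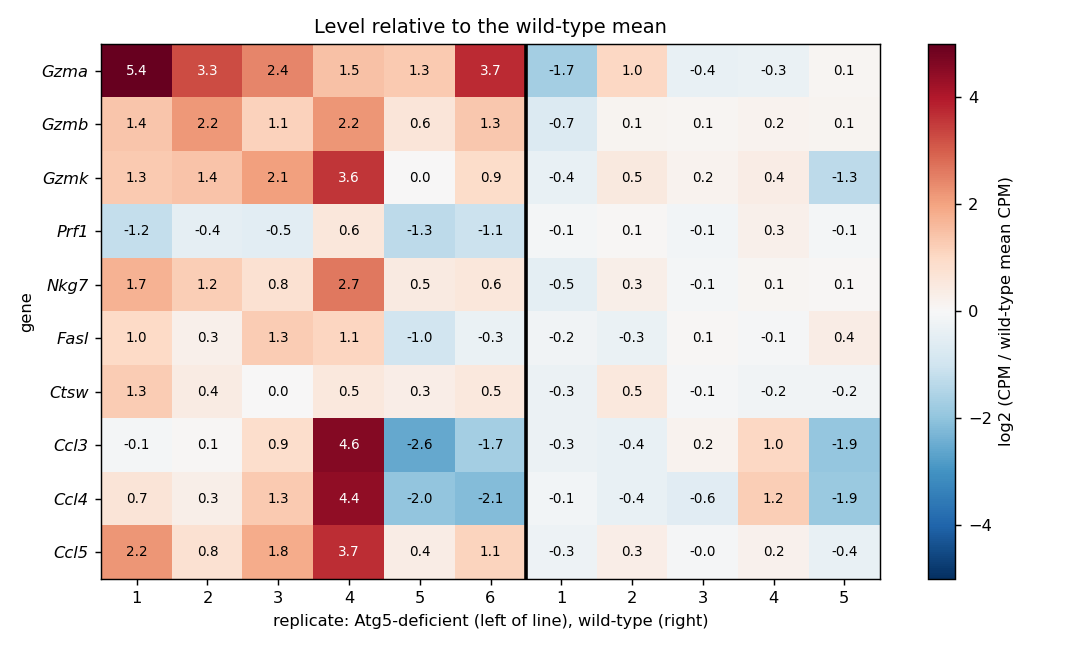
Log2 of the CPM of each gene in each library over the wild-type mean of that gene, Atg5-deficient replicates to the left of the line and wild-type replicates to the right. Replicate 4 was the highest in 7 genes, replicate 1 in Gzma and Ctsw and replicate 3 in Fasl, and the Prf1 row was below the wild-type mean in 5 of the 6 Atg5-deficient libraries.

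The 6 Atg5-deficient libraries did not carry the higher levels equally. Replicate 4 was the highest of all 11 libraries in 7 of the 10 genes (Gzmb, Gzmk, Prf1, Nkg7, Ccl3, Ccl4 and Ccl5), as it was in 7.83% of all genes tested, and it was above every wild-type library in all 10. Its median ratio to the wild-type mean over the 10 genes was 5.46. Replicate 1 was the highest in 2 of 10 (Gzma and Ctsw), as in 5.81% of all genes, and its median ratio was 2.42. Replicate 3 had a median ratio of 2.31, was highest in Fasl and was above every wild-type library in 7 genes, all but Prf1, Ctsw and Ccl3. Replicates 2 and 6 had median ratios of 1.52 and 1.46 and were each above every wild-type library in 5 genes. Replicate 5 was the nearest to wild-type, with a median ratio of 1.13, and was the lowest of the 6 in 8 of 10 genes. It was above every wild-type library in 4 genes (Gzma, Gzmb, Nkg7 and Ccl5) and below every one in 4 (Prf1, Fasl, Ccl3 and Ccl4). The share of all genes in which a given library lay above or below every wild-type library was not computed. These counts per library thus have no background and only describe the 10 genes.

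**Figure D4:**
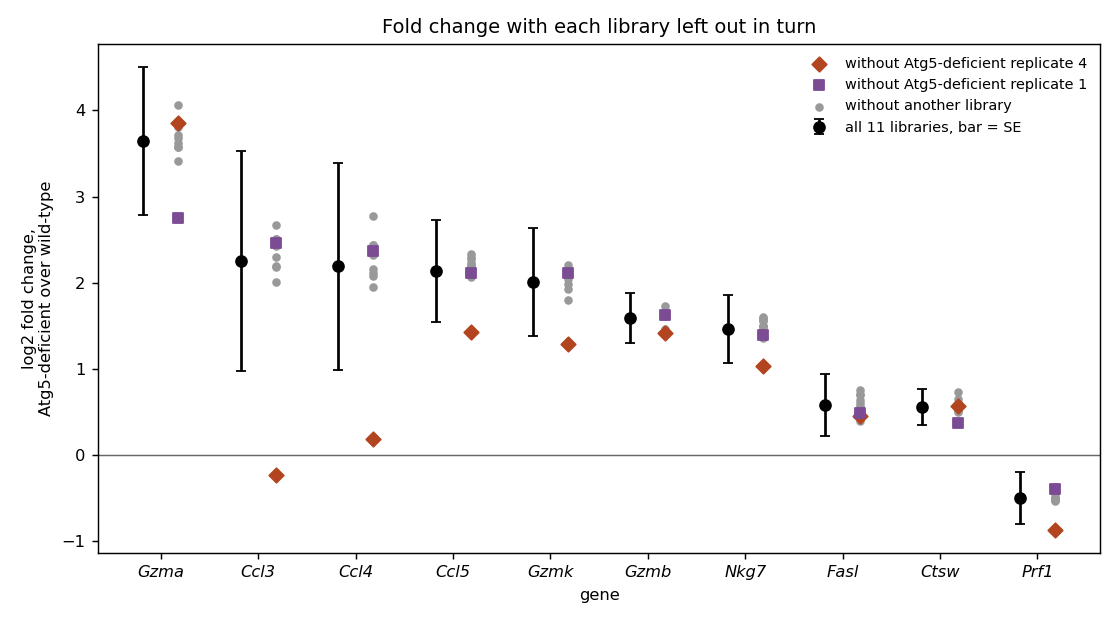
Log2 fold change (Atg5-deficient over wild-type) of each gene with all 11 libraries (black, bar = SE) and with each library left out in turn; the diamonds leave out Atg5-deficient replicate 4 and the squares replicate 1. Leaving out replicate 4 brought Ccl3 to -0.23 and Ccl4 to 0.19, while Gzmb stayed between 1.42 and 1.73 in all fits.

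Without replicate 4, 4 genes passed as higher (Gzma, Gzmb, Nkg7 and Ccl5), where 2.81% of all genes did, and Prf1 as lower, where 1.14% did. Without replicate 1, Gzma and Gzmb passed, where 2.90% of all genes passed as higher. Without both, Gzma (log2 fold change 2.95, SE 0.549, adjusted p = 0.0347) and Gzmb (1.43, SE 0.291, adjusted p = 0.0493) passed, where 1.0% of all genes passed as higher, and 0 of 10 passed as lower (0.236%). That pair of libraries was chosen, and replicate 4 was singled out, after the levels had been seen.

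Summed markers of other cytotoxic cells overlapped between the groups. The 9 markers of NK cells and ILC1 summed to 4.397 to 15.7 CPM (median 8.21) in Atg5-deficient and 8.30 to 18.4 CPM (median 15.4) in wild-type libraries (adjusted p = 0.244 over 13 cell type lists, exact permutation, two-sided), and Ncr1, which defines these cells, was at 0 to 0.305 CPM in Atg5-deficient and 0 to 0.178 CPM in wild-type libraries. The 2 CD8 markers, nearly all Cd8b1, summed to 4.10 to 6.33 CPM in Atg5-deficient and 4.48 to 6.55 CPM in wild-type libraries. NKT markers summed to 9.16 to 21.9 CPM in Atg5-deficient and 13.6 to 26.9 CPM in wild-type libraries, and gamma-delta T cell markers to 7.43 to 11.6 CPM in Atg5-deficient and 8.68 to 15.6 CPM in wild-type libraries. In Atg5-deficient replicate 4 the NK sum was 7.35 CPM, the CD8 sum 4.30 CPM and Cd4 995 CPM, the highest Cd4 of the 11 libraries, while Ncr1 and all 7 neutrophil markers were at 0.

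Markers of other cells that can make these chemokines also overlapped between the groups. Macrophage and Kupffer cell markers summed to 6.02 to 21.6 CPM in Atg5-deficient and 10.7 to 15.3 CPM in wild-type libraries, and to 9.65 CPM in Atg5-deficient replicate 4. Neutrophil markers summed to 0 to 0.603 CPM in Atg5-deficient and 0 to 0.589 CPM in wild-type libraries, and mast cell and basophil markers to 0 to 0.263 CPM in Atg5-deficient and 0.0276 to 0.322 CPM in wild-type libraries. Hepatocyte markers summed to 71.6 to 1251 CPM in Atg5-deficient and 52.7 to 719 CPM in wild-type libraries. They were highest in Atg5-deficient replicates 1 and 2, where Gzma stood at 48.6 and 11.5 CPM. In replicate 3 the hepatocyte sum was 928 CPM with Gzma at 6.35 CPM, and in replicate 6 it was 302 CPM with Gzma at 15.7 CPM. The part of hepatocyte RNA in the Gzma values was not tested. None of the 13 lists passed by exact permutation (smallest adjusted p = 0.244), and at an unadjusted p under 0.05 the CD4 T cell list was higher (p = 0.0368) and the NKT list lower (p = 0.0411). With TMM-scaled CPM the unadjusted p was 0.0628 for the CD4 T cell list, 0.0216 for the NKT list and 0.0498 for the NK and ILC1 list, which was lower, and the smallest adjusted p was 0.267.

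Beyond the 10 genes, those of granule content, protection and control were counted in lists that hold none of them. The lists were also chosen with earlier results of these data known, so shares of all genes beside their counts are a description and not a test. Of 15 tested genes of granule storage, processing and release, 2 passed, both higher, where 4.43% of all genes did. The median log2 fold change of that list was 0.17. Stx11, a syntaxin needed for granule fusion, averaged 58.5 ± 12.0 CPM (SD, n = 6) in Atg5-deficient and 27.9 ± 7.67 CPM (SD, n = 5) in wild-type libraries (log2 fold change 1.07, SE 0.182, edgeR adjusted p = 0.0068). Srgn, the proteoglycan core on which granzymes are packed, averaged 300.3 ± 49.4 CPM (SD, n = 6) in Atg5-deficient and 203 ± 27.5 CPM (SD, n = 5) in wild-type libraries (0.56, SE 0.121, adjusted p = 0.0156). Vamp8 (0.47, adjusted p = 0.0527) and Rab27a (0.39, adjusted p = 0.0728), both of granule release, missed the threshold. Of the other 7 granzymes only Gzmc (0.83, adjusted p = 0.177) and Gzmm (0.079, adjusted p = 0.920) had enough counts for the test.

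Of 6 tested protease inhibitors that act on granule enzymes, 3 passed, all higher, where 4.43% of all genes did. The median log2 fold change of the list was 1.13. Serpina3g, an inhibitor of cathepsins in mouse T cells, stood at 62.4 to 153 CPM (median 115) in Atg5-deficient and 34.3, 56.8, 56.7, 41.2 and 41.8 CPM in wild-type replicates 1 to 5 (log2 fold change 1.29, SE 0.226, edgeR adjusted p = 0.0090), with no overlap, and passed in all 11 fits with 1 library left out. Serpinb9, which protects lymphocytes from their own granzyme B, averaged 30.2 ± 13.6 CPM (SD, n = 6) in Atg5-deficient and 14.8 ± 2.56 CPM (SD, n = 5) in wild-type libraries (1.03, SE 0.280, adjusted p = 0.0473). Serpinb6b passed at 1.24 (SE 0.309, adjusted p = 0.0368), and Serpina3f did not (1.46, SE 0.484, adjusted p = 0.0983). Serpinb9 and Serpinb6b each passed in 3 of the 11 fits with 1 library left out, with adjusted p up to 0.107 for Serpinb9 and up to 0.0841 for Serpinb6b.

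Of 8 tested genes of the death receptor pathway, 1 passed, as higher, where 4.43% of all genes did. The median log2 fold change of the list was 0.043. Tnfsf10, the death ligand TRAIL, passed at 0.62 (SE 0.171, edgeR adjusted p = 0.0453), and in 2 of 11 fits with 1 library left out (adjusted p up to 0.0919). The adaptor gene Fadd (0.30, adjusted p = 0.133), Bid (0.23, adjusted p = 0.380) and the inhibitor gene Cflar (-0.11, adjusted p = 0.518) did not pass.

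Of 9 tested transcription factor genes of the cytotoxic programme all had a positive fold change, as had 49.7% of all genes. In this list 3 passed, all higher, where 4.43% of all genes did, and the median log2 fold change was 1.097. Prdm1, which encodes Blimp-1, averaged 90.8 ± 29.3 CPM (SD, n = 6) in Atg5-deficient and 42.4 ± 7.501 CPM (SD, n = 5) in wild-type libraries (1.097, SE 0.212, edgeR adjusted p = 0.0120). Tbx21, which encodes T-bet, averaged 59.1 ± 24.1 CPM (SD, n = 6) in Atg5-deficient and 26.6 ± 6.63 CPM (SD, n = 5) in wild-type libraries (1.15, SE 0.266, adjusted p = 0.0266). Neither overlapped between the groups, and with 1 library left out Prdm1 passed in 11 of 11 fits and Tbx21 in 7 (adjusted p up to 0.0650). Id2 passed at 0.61 (SE 0.166, adjusted p = 0.0450; up to 0.0992 with 1 library left out) and Stat4 did not (0.34, adjusted p = 0.0634). Eomes, the other T-box factor of killer cells, was looked at after its values had been seen. It stood at 83.0 CPM in Atg5-deficient replicate 4 and at 6.15 to 24.8 CPM in the other 5, against 4.25 to 10.99 CPM in wild-type libraries, and did not pass (1.57, adjusted p = 0.217).

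Of the receptor genes of these chemokines, Ccr1 (log2 fold change 0.57, edgeR adjusted p = 0.268) and Ccr3 (0.59, adjusted p = 0.282) did not pass. Of 26 other chemokine genes only 8 had enough counts, with a median log2 fold change of 0.45, and the smallest adjusted p was that of Cxcl10 (0.56, adjusted p = 0.155), a ligand of CXCR3. Ccl9, Cxcl2 and Cxcl12 had adjusted p of 0.370, 0.437 and 0.580.

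Of 15 tested surface and effector genes of cytotoxic lymphocytes, 5 passed, all higher, where 4.43% of all genes did. The median log2 fold change of the list was 0.92. Il18rap, a subunit of the IL-18 receptor, averaged 96.2 ± 35.6 CPM (SD, n = 6) in Atg5-deficient and 40.3 ± 5.32 CPM (SD, n = 5) in wild-type libraries, with no overlap (1.25, SE 0.221, edgeR adjusted p = 0.0093). Slamf7, a receptor of the SLAM family (1.36, SE 0.305, adjusted p = 0.0231), Il2rb, the IL-2 and IL-15 receptor beta chain (0.69, SE 0.143, adjusted p = 0.0134), and the integrin gene Itga4 (0.40, SE 0.0956, adjusted p = 0.0256) also rose. With 1 library left out, Il18rap and Il2rb passed in 11 of 11 fits, and Slamf7 and Itga4 in 7 each (adjusted p up to 0.0598 for Slamf7 and up to 0.0580 for Itga4).

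**Figure D5:**
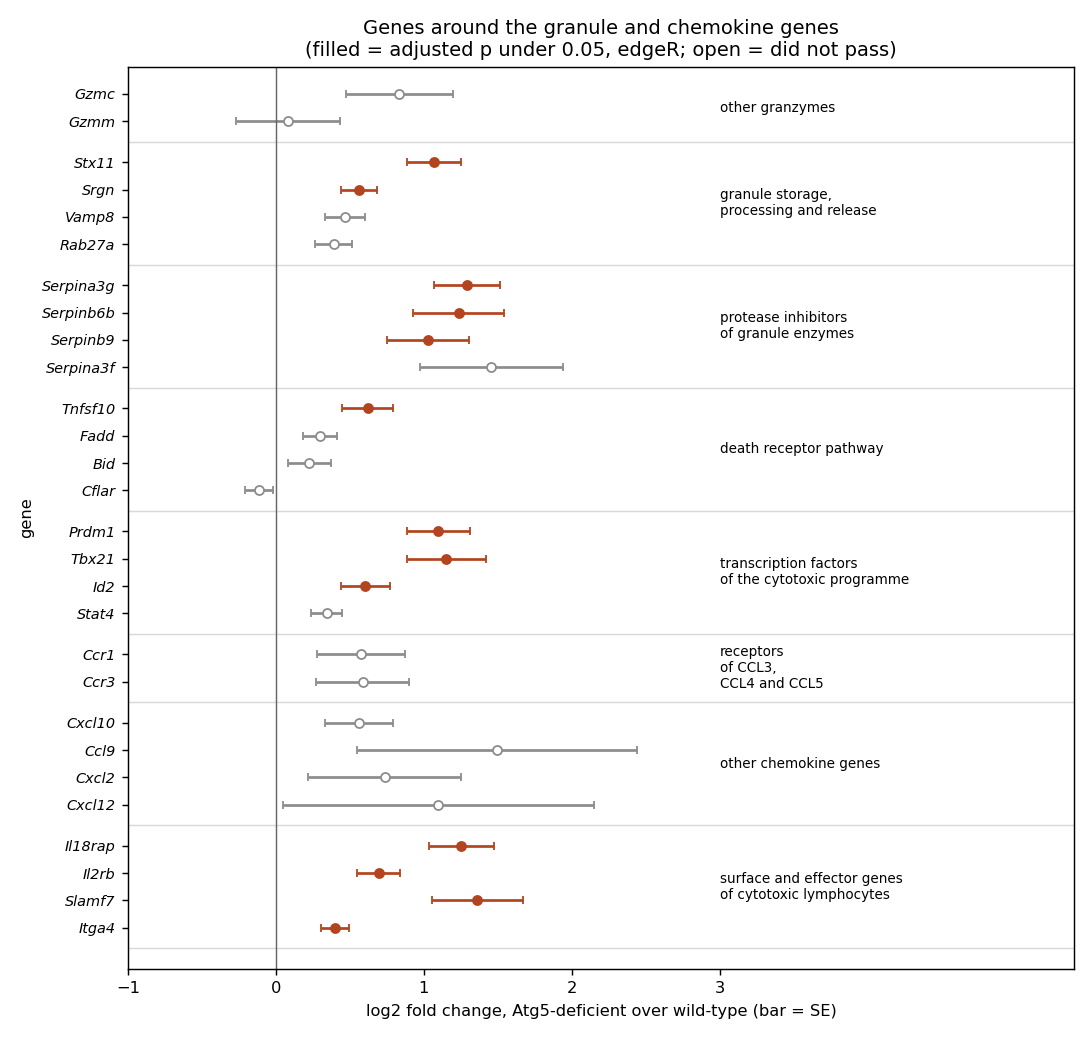
Log2 fold change (Atg5-deficient over wild-type, bar = SE) of up to 4 genes with the smallest p in each of 8 lists around the 10 genes; filled points passed at an adjusted p under 0.05. The filled points ran from 0.40 (Itga4) to 1.36 (Slamf7).

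The genes nearest in pattern to each of the 10, by Pearson's r of log2(CPM + 1) deviations from the group means over the 11 libraries, are given as a description. For Ccl3 they were Ccl4 (r = 0.98), Insrr (0.97) and Adgrg1 (0.96), and Adgrg1, an adhesion receptor gene, stood at 34.99 CPM in Atg5-deficient replicate 4 and at most at 2.01 CPM in any other library. For Gzmb they were Cobll1 (0.95), Ndufaf6 (0.95) and Rps27 (0.88), for Fasl Il10ra (0.96), Plcxd1 (0.95) and Mapre3 (0.94), and for Nkg7 Commd4 (0.93), Chsy1 (0.92) and Ier3 (0.92). For Gzma they were Mettl21c (0.95), Slc10a1 (0.93) and the integrin gene Itga1 (0.92), of which only Itga1 exceeded 1.80 CPM. For Prf1 they were Spp1 (0.92), Ccl3 (0.92) and Il18 (0.92), which rest on Atg5-deficient replicates 4 and 5, since r fell to 0.65 for each without them. For Ctsw they were Tmco1 (0.95), Snx32 (0.95) and Cd226 (0.92), for Ccl5 Baiap3 (0.90), Hip1 (0.90) and Ptpre (0.89), for Gzmk Ccl3, C78859 and Ccl4 (0.94, 0.93 and 0.92), and for Ccl4 Ccl3, Insrr and Adgrg1 (0.98, 0.95 and 0.95). Without Atg5-deficient replicates 4 and 5, r also fell to 0.62 for Ccl5 with Hip1. Without Atg5-deficient replicate 1 and wild-type replicate 2, r fell to 0.69 for Ctsw with Cd226 and to 0.71 for Ctsw with Snx32.

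Genes next to the 10 on the chromosome were compared too. Of 50 other protein-coding genes within 100 kb, 32 were tested. Among these 0 passed as higher, where 4.43% of all genes did, and 1 as lower, where 2.41% did. The next smallest edgeR adjusted p were those of Gm45233 (log2 fold change 0.61, adjusted p = 0.0625) and Etfb (0.60, 0.0762) near Nkg7, and of Esm1 (1.54, 0.0704) within the span of Gzmk. The gene that passed as lower was Adamts14, which lies 24395 bases from Prf1. It stood at 1.48 to 4.85 CPM in Atg5-deficient, against 4.16 to 6.89 CPM in wild-type libraries (log2 fold change -1.16, SE 0.294, edgeR adjusted p = 0.0314).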

How the data were processed

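Raw read counts per Ensembl gene ID were deposited as 1 table for the 11 libraries, with 0 columns of other samples. STAR, featureCounts and GRCm38 are named in the submitters' processing notes. The sources used here do not give their versions, the annotation, the strand setting or how multimapping reads were counted. Libraries were made with a stranded total RNA kit, per the labels' protocols. Symbols, coordinates and exon lengths come from GENCODE M21 (GRCm38), to which 52125 of 56748 IDs (91.9%) and 89.3% to 96.5% of the reads of a library were matched.

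After filterByExpr (a count of at least 10, and 15 in total), 17987 genes were scaled by TMM and compared between genotypes by edgeR's robust quasi-likelihood F test, adjusted by Benjamini-Hochberg, at a threshold of 0.05. SE is the absolute log2 fold change over the square root of F. CPM of genes was computed from the deposited counts with TMM factors, CPM per kb divides it by the union of exons, and summed cell markers use CPM of total counts. Single values were set against all 462 ways to split the libraries into 6 and 5 (exact permutation, mean log2(CPM + 1), two-sided, smallest possible p 0.00216). Pairs of genes were compared by 100000 permutations within groups. The tools were edgeR 4.0.16, DESeq2 1.42.0 and limma 3.58.1 in R 4.3.3, and scipy 1.17.1.

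The members and lists were chosen with earlier results of these data known, and 2 genes of the lists are not reported here and are left out of their counts. Named genes are the 10 members, up to 4 genes per list with the smallest p, defining cell markers and the 3 genes nearest in pattern to each member. Between libraries of a group, chi-square per degree of freedom was 14.1 to 188, so no library was a copy of another. On simulated counts the test recovered 5.97%, 17.9% and 98.5% of genes changed 1.5-fold, 2-fold and 4-fold over 17751 genes, with 2 false of 83 calls. The simulation gave every gene the same dispersion and no outlying library. Its rates thus do not describe genes as variable between libraries as Gzmk, Ccl3, Ccl4 and Ccl5, which did not pass. Alternatives were other scalings, DESeq2, limma-voom with quality weights, no low-count filter, a strict one (CPM of at least 1 in 5 libraries), another library size, the libraries with consecutive title numbers 75106 to 75113, and each library left out in turn. Leaving out Atg5-deficient replicates 1 and 4 together was added after the data were seen.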

Additional observations from a re-analysis of the deposited data

Results flagged for a closer look

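In 11 of 76 groups of 4 to 6 libraries 1 library lay apart from the rest by Dixon's criterion, and 9 of the 11 were among the 20 groups of the 10 genes. For normally distributed values chance meets the criterion in about 1 in 20 groups. The values here were CPM without logarithms and the groups share the same libraries, so that this rate need not hold. Groups outside the 10 genes were those of up to 4 genes per list with the smallest p. That choice can favour genes with little spread within a group, so the 2 sets of groups are not alike. Atg5-deficient replicate 4 lay above its group in Gzmk (66.0 CPM, others up to 23.4), Prf1 (27.8 CPM, others up to 13.7), Ccl3 (71.3 CPM, others up to 5.34), Ccl4 (50.4 CPM, others up to 5.69) and Ccl5 (649 CPM, others up to 234). Atg5-deficient replicate 1 lay above its group in Gzma (48.6 CPM, others up to 15.7) and Ctsw (69.1 CPM, others up to 42.0). Wild-type replicate 1 lay below its group in Gzmb (20.5 CPM, others from 34.5). Wild-type replicate 2 lay above its group in Ctsw (41.9 CPM, others up to 27.7) and below it in Cflar (142 CPM, others from 171), and wild-type replicate 3 lay above its group in Cxcl12 (1.61 CPM, others up to 0.456).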

How the results depend on the processing

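Against 2 of 10 genes called higher, DESeq2 called 6, limma-voom with quality weights 4, a strict low-count filter 4, no low-count filter 1, and the libraries with consecutive title numbers (5 Atg5-deficient, 3 wild-type) 0, where 5 were higher at an unadjusted p under 0.05. With 1 library left out, 1 to 4 were called higher and 0 to 1 lower. The sign of a log2 fold change turned only for Ccl3, which ran from -0.23 (without Atg5-deficient replicate 4) to 2.68 with 1 library left out and was -0.26 without replicates 1 and 4. Gzmb kept its call in all settings but the consecutive numbers (log2 fold change 1.51, adjusted p = 0.0749), and Gzma lost its call with limma-voom (log2 fold change 3.74, adjusted p = 0.107), no filter (3.63, 0.0775) and the consecutive numbers (3.36, 0.188), against 3.65. The cause was not tested.

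Over all genes, against 797 higher and 434 lower, DESeq2 called 1394 and 939, limma-voom 1966 and 1460, and the consecutive numbers 87 and 89. Upper-quartile factors called 685 lower, and 46.0% of their calls were higher, against 64.7%. With 1 library left out, 402 to 1410 were called higher and 191 to 733 lower, and without Atg5-deficient replicates 1 and 4, 182 and 43. The summed dendritic cell markers differed by 0.0138 CPM of total counts and by -0.0181 with TMM-scaled CPM. Gzma in wild-type libraries, and Ccl3 and Ccl4 in most, rest on low counts, which limits the precision of their fold changes.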
